A study of Mus musculus with 27 samples.

Results

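Iron handling in the embryonic optic stalk was followed through 8 genes of the 55487 in the count table: the ferritin subunits Fth1 and Ftl1, the transferrin receptor Tfrc, the exporter Slc40a1, the importer Slc11a2, the iron regulatory proteins Aco1 and Ireb2, and the haem oxygenase Hmox1. The 8 were chosen by name, for the higher Fth1 and Ftl1 of axon-rich control tissue, so the levels of controls in that contrast are a description here and carry no test. All 8 passed the filter on low counts.

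Cells keep spare iron inside ferritin, a hollow shell built of heavy (Fth1) and light (Ftl1) chains, of which the heavy chain oxidises incoming iron. Iron enters on transferrin through Tfrc, leaves endosomes through Slc11a2 (DMT1), and is exported by Slc40a1 (ferroportin). When iron is scarce the regulatory proteins Aco1 (IRP1) and Ireb2 (IRP2) bind a stem-loop, the iron-responsive element, which blocks translation of ferritin messages from the 5′ untranslated region and protects the Tfrc message in the 3′ untranslated region. Much of this control acts on translation and protein stability, which read counts do not measure.

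The 27 libraries came from mouse embryos on a C57Bl6/J background at embryonic day 14, 9 in number, each of which gave 3 laser-cut pieces of the optic stalk, the tube joining eye cup and brain: dorsal, ventral and axon-rich. In the 5 Smarcc1-DCT-cKO embryos (called mutants here) both floxed alleles of Smarcc1 (Baf155), a SWI/SNF chromatin remodelling subunit, met Cre driven by Dct, a pigment cell gene, together with the Z/EG reporter. The 4 control embryos were littermates without Dct-Cre. Dct-Cre acts in the retinal pigment epithelium and the stalk, and per the study the deletion had reached the whole stalk by this stage. Batch A held 1 control and 3 mutant embryos while batch B held 3 and 2.

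Library totals ran from 10.9 to 34.0 M counts, and 1 read equalled 0.0294 to 0.0917 CPM (the usual scaling of a gene’s counts by the total of its library). Smarcc1 itself stood at 50.1 to 289 CPM in controls and 1.86 to 107 CPM in mutants, and mutant and control libraries overlapped in the dorsal piece. Axon-rich libraries differed from the others beyond iron: the mitochondrial share of counts was 10.9% ± 3.17 (SD, n = 4) for axon controls and 10.2% ± 2.04 (SD, n = 5) for axon mutants, against group means of 5.11% to 5.81% elsewhere. The summed level of 11 neuron and axon markers was 1360 to 2306 CPM in axon controls and 1133 to 2883 CPM in axon mutants, against 54.7 to 422 CPM in dorsal and 165 to 418 CPM in ventral mutants. Dorsal controls had 45.2 to 1089 CPM and ventral controls 134 to 1472 CPM, the latter overlapping axon controls. Of the 11 markers, 5 had a higher mean in axon than in dorsal controls and 6 than in ventral controls, and 7 and 6 did in mutants, with Pou4f1 at 0 in axon controls and Elavl3 in axon mutants. Erythroid markers, 12 genes, summed to 609 to 33122 CPM in axon mutants, 176 to 7288 CPM in dorsal mutants and 2.27 to 1227 CPM in ventral mutants, with 9 and 10 of the 12 higher in axon and Epor and Klf1 at 0 there. The control sums were 2650 to 9034 CPM in axon, 776 to 24458 CPM in dorsal and 275 to 5278 CPM in ventral pieces. In controls 3 and 10 of the 12 were higher in axon, with Klf1 and Slc4a1 at 0 there. In these bulk pieces fewer cells of a type and less RNA per cell cannot be told apart.

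The iron-responsive elements of the members are printed because they are the feature by which both ferritin messages answer to the same regulators. A search for a C, a stem of 5 bases and the loop CAGTGN closed by 5 pairing bases (G-T pairs allowed) on the transcript strand found such an element in 4 of the 8 members, and in 0.151% of the 20597 genes with a 5′ and 0.615% of the 20979 genes with a 3′ untranslated region in GENCODE M21 (mm10). Capitals mark the loop.
Fth1 5′: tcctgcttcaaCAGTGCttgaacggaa
Ftl1 5′: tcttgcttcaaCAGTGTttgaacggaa
Slc40a1 5′: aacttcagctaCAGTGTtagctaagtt
Tfrc 3′ element a: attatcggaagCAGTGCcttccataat
Tfrc 3′ element b: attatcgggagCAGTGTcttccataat
Tfrc 3′ element c: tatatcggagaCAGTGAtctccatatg
Tfrc 3′ element d: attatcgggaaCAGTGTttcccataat

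The Fth1 element lies at chr19:9982733-9982759 on the plus strand and the Ftl1 element at chr7:45459780-45459806 on the minus strand. The Slc40a1 element lies at chr1:45925466-45925492 on the minus strand. The Tfrc elements lie between chr16:32631220 and chr16:32631737 on the plus strand. Slc11a2, Ireb2, Aco1 and Hmox1 held no match to these letters in their annotated untranslated regions. The search required this loop and a fully paired stem, so elements of another form would be missed, in Tfrc too. A match describes the sequence and is not evidence that a regulator was bound.

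Ferritin messages were among the most abundant in the tissue, and both stood about 2-fold higher in the axon-rich piece than in the dorsal and ventral pieces, in mutants as in controls. Per kilobase of exon, Ftl1 ranked 9 of the 18647 genes above 0 in axon controls and 10 of 16993 in axon mutants. Fth1 ranked 85 and 113 in the same groups. The 2 ferritins together made up 0.585% ± 0.116 (SD, n = 4) of the axon control counts and 0.554% ± 0.0946 (SD, n = 5) of the axon mutant counts. Their share was 0.270% to 0.312%, as group means, in the dorsal and ventral pieces.

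In controls, whose levels chose the genes, Fth1 (ENSMUSG00000024661.7, chr19:9980598-9985098, plus strand) stood at 2663, 2279, 1949 and 2036 CPM in the axon pieces. The dorsal controls had 1245, 1206, 1057 and 1121 CPM, and the ventral controls 1099, 1223, 1117 and 1060.0 CPM. Every axon control library lay above every dorsal and ventral control library. Ftl1 (ENSMUSG00000050708.16, chr7:45457944-45459884, minus strand) stood at 4583, 4004, 3318 and 2563 CPM in axon controls. It had 1879, 1645, 1059 and 1569.6 CPM in dorsal controls and 2049.8, 1963, 2279 and 1688 CPM in ventral controls, again below every axon library. Of all genes 1.5% were separated this way between axon and dorsal controls and 1.11% between axon and ventral controls, which is context and no test.

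**Figure D1:**
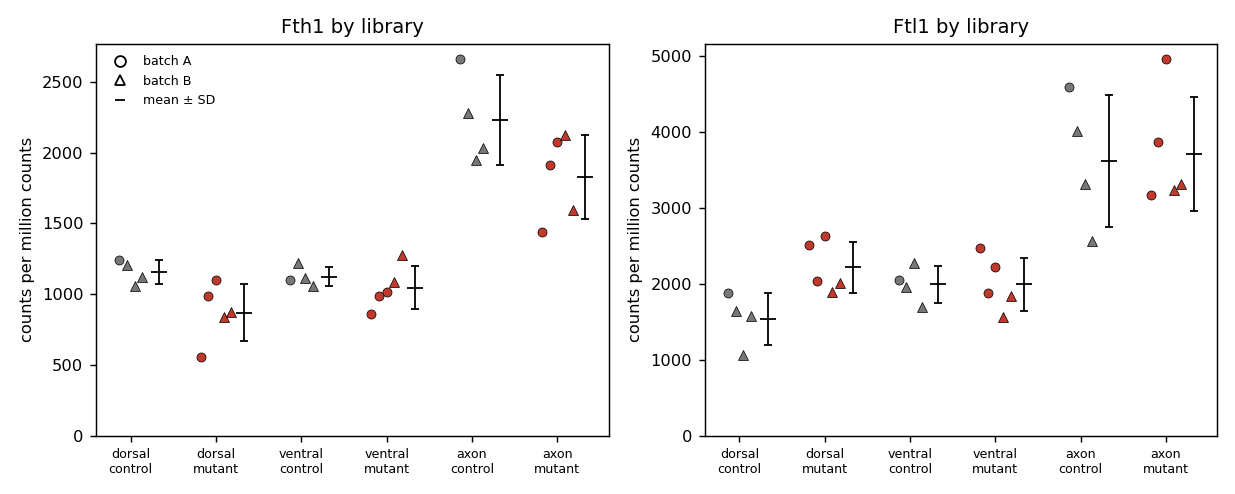
Fth1 (left) and Ftl1 (right) in CPM, 1 point per library, by region and genotype, grey for controls and red for mutants. Circles are batch A and triangles batch B, and the bars give the group mean and SD; axon libraries lie between 1439 and 2663 CPM for Fth1 and between 2563 and 4959 CPM for Ftl1.

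The genes were chosen for the levels of controls and not of mutants, so the regional difference could be tested in mutant libraries. Earlier results of these data were known when the genes and tests were chosen. Fth1 stood at 1439, 1909.7, 2074, 2123 and 1597 CPM in axon mutants. It had 557, 989, 1097, 836 and 872 CPM in the dorsal and 859, 988, 1016, 1086 and 1274 CPM in the ventral mutants. All 5 axon libraries lay above all 10 others, although the lowest axon and the highest ventral library were close. Fth1 was higher in axon than in dorsal mutants by a log2 fold change of 1.25 (SE 0.18, 95% interval 0.87 to 1.63, edgeR quasi-likelihood adjusted p = 0.00206). Against ventral mutants the log2 fold change was 1.00 (SE 0.14, interval 0.70 to 1.30, edgeR adjusted p = 0.00313).

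Ftl1 followed with 3173, 3864, 4959, 3238 and 3309.9 CPM in axon mutants. The dorsal mutants had 2507, 2040.3, 2626, 1885 and 2012 CPM, and the ventral mutants 2464, 1883, 2215, 1565 and 1843 CPM. The axon values again overlapped neither group. The log2 fold change was 0.93 against dorsal (SE 0.14, interval 0.63 to 1.24, edgeR adjusted p = 0.00377) and 1.08 against ventral mutants (SE 0.16, interval 0.75 to 1.42, edgeR adjusted p = 0.00431). The axon library with the most Ftl1 also had the highest erythroid sum, 33122 CPM. Both ferritins passed the test in both comparisons with that library left out.

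With edgeR both ferritins were thus called in both comparisons, and the 6 other members in neither. DESeq2 and limma voom also called both between axon and ventral mutants, but between axon and dorsal mutants DESeq2 called Fth1 and not Ftl1, and limma voom Ftl1 and not Fth1. Of all genes tested, 0.545% were called between axon and dorsal mutants (86 of 15780) and 0.443% between axon and ventral mutants (70 of 15804). Separation of every axon library above every other library held for 1.06% of genes against dorsal and 0.842% against ventral mutants. The median gene had a log2 fold change of -0.33 against dorsal and -0.37 against ventral mutants. Axon mutant libraries had counts for fewer genes (9225 to 11358) than dorsal (12396 to 15177) and ventral mutant libraries (12918 to 15086). The part of this in the median and in the ferritin difference was not tested. By a two-sided exact permutation of the libraries, on log2(CPM + 1), p was 0.00794 for each ferritin in both comparisons, the smallest that 252 regroupings can give, and 0.0167, again the smallest, when batch composition was kept. Libraries of the same number were paired as 1 embryo, and sign flips over the 5 embryos gave 0.0625 for each ferritin in both comparisons. This is the smallest p that test allows, so it could not fall under 0.05.

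Within batches the fitted differences kept their size, and none was called. Between axon and dorsal mutants Fth1 differed by 1.22 on the log2 scale in batch A and 1.26 in batch B, and Ftl1 by 0.94 and 0.89. Between axon and ventral mutants the values were 1.09 and 0.85 for Fth1 and 1.04 and 1.14 for Ftl1. The edgeR adjusted p in single batches lay between 0.191 and 0.616. With the embryo as a block both ferritins stayed called in both comparisons. The neuron and axon sum and the mitochondrial share given above were also higher in the axon mutants. So were 11 mesenchyme markers, with sums of 629 to 2265 CPM in axon, 55.6 to 373 CPM in dorsal and 58.8 to 181 CPM in ventral mutants, where 10 and 11 of the 11 were higher in axon. In controls these markers summed to 400 to 2526 CPM in axon, 1160 to 10389 CPM in dorsal and 55.4 to 1305 CPM in ventral pieces. There 1 and 11 of the 11 were higher in axon. The sum of 9 astrocyte progenitor markers was 3442 to 4872 CPM in axon, 944 to 1815 CPM in dorsal and 2616 to 4510 CPM in ventral mutants, with 7 and 3 of the 9 higher in axon. No mesenchyme or astrocyte progenitor marker was at 0 in all axon mutants (0 of each list). The part of these lists and of the mitochondrial share in the ferritin difference was not tested.

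**Figure D2:**
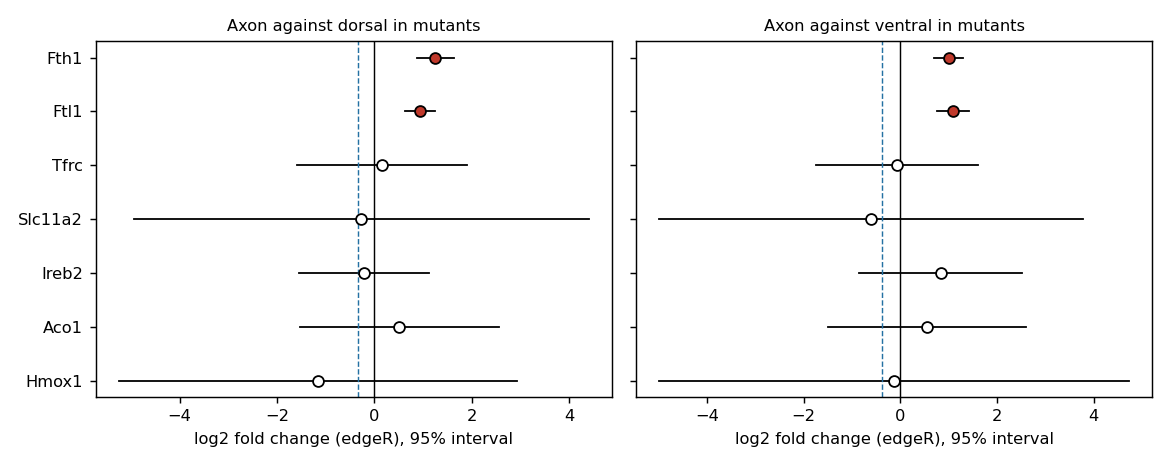
Log2 fold changes of 7 members between axon and dorsal (left) and axon and ventral (right) mutant libraries, with 95% intervals from edgeR; filled points passed the test and the dashed line is the median of all genes. Fth1 and Ftl1 lie between 0.93 and 1.25 with narrow intervals, whereas the other intervals span 0; Slc40a1, at 0 in all axon and ventral mutants, is left out.

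With dorsal, ventral and axon pieces of the same number taken as 1 embryo, the ratio can also be read embryo by embryo. Control levels chose the genes, so the control ratios below are a description and carry no test. Fth1 was higher in the axon piece than in the dorsal piece of all 5 mutants, by 1.83 to 2.58 times. In controls Fth1 was higher by 1.82 to 2.14 times. Its axon to ventral ratio was 1.74 to 2.42 in controls and 1.25 to 2.04 in mutants. For Ftl1 the axon to dorsal ratio was 1.63 to 3.13 in controls and 1.27 to 1.89 in mutants, and the axon to ventral ratio 1.46 to 2.24 and 1.29 to 2.24. The lowest Ftl1 ratios were those of mutant 1, and the lowest Fth1 ratio was the axon to ventral ratio of mutant 5. The ratios were also taken under 5 scalings, among them totals without mitochondrial or erythroid genes and TMM or RLE factors. Ratios of group means ranged from 1.68 to 2.39 in mutants and, as a description, from 1.81 to 2.77 in controls. Axon and other libraries of the same genotype overlapped under none of them.

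**Figure D3:**
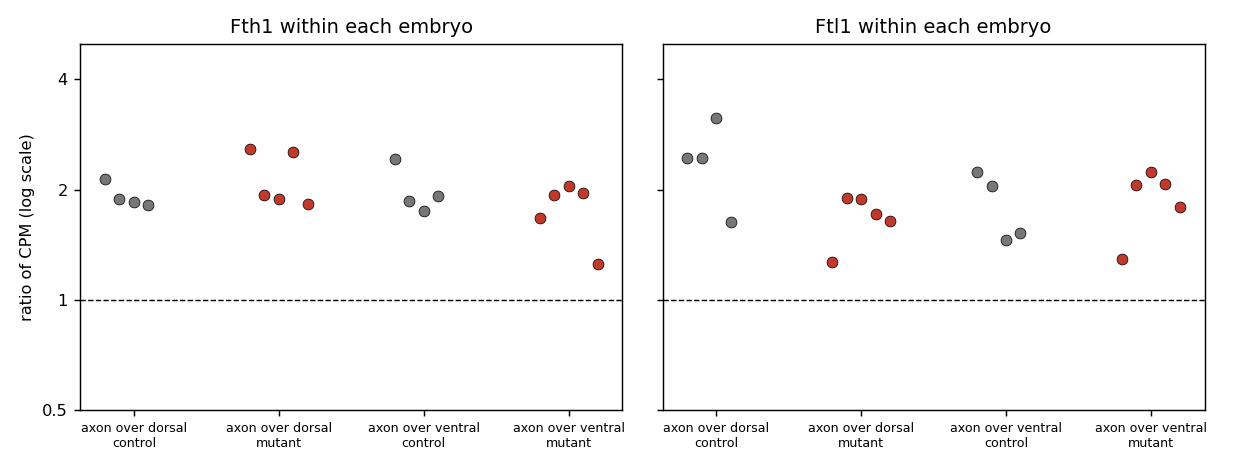
Ratio of CPM between pieces of the same number for Fth1 (left) and Ftl1 (right), on a log axis. Each point is 1 number, taken as 1 embryo, grey for the 4 controls and red for the 5 mutants. All points lie above the dashed line at 1, from 1.25 to 2.58 for Fth1 and from 1.27 to 3.13 for Ftl1. Control levels chose the genes, so the control points are a description.

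Between dorsal and ventral mutants no ferritin difference was called. Fth1 differed by -0.24 (interval -0.61 to 0.13) and Ftl1 by 0.16 (interval -0.15 to 0.48) on the log2 scale, and edgeR called 0 of the 8 members, as it called 0% of the 16168 genes tested. In order of group means Fth1 ran from axon controls (2231 ± 319.7 CPM, SD, n = 4) over axon mutants (1829 ± 299.6, SD, n = 5), dorsal controls (1157 ± 84.8, SD, n = 4), ventral controls (1125 ± 69.4, SD, n = 4) and ventral mutants (1045 ± 152, SD, n = 5) to dorsal mutants (870.5 ± 203, SD, n = 5). The only neighbours in this order without overlap were axon mutants and dorsal controls. Ftl1 ran from axon mutants (3709 ± 751 CPM, SD, n = 5) over axon controls (3617 ± 872, SD, n = 4), dorsal mutants (2214 ± 329, SD, n = 5), ventral controls (1995 ± 244, SD, n = 4) and ventral mutants (1994 ± 349.7, SD, n = 5) to dorsal controls (1538 ± 346, SD, n = 4). Dorsal mutants and axon controls, neighbours in this order, overlapped.

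In the dorsal piece the mutant to control ratios of the 2 chains lay on opposite sides of 1. The ratio of mutant to control means was 0.752 for Fth1 and 1.44 for Ftl1 in dorsal, 0.929 and 1.00 in ventral, and 0.819 and 1.03 in axon libraries. All 5 dorsal mutants had more Ftl1 than any dorsal control, the lowest mutant (1885 CPM) lying just over the highest control (1879 CPM), and 1.31% of all genes were separated in this direction. Under 1 of the 5 scalings the groups overlapped. No test was made of the ferritins between genotypes, because their control levels entered the choice of the genes.

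Ftl1 counts per Fth1 count were 1.51, 1.36, 1.00 and 1.40 in dorsal controls. The dorsal mutants had 4.50, 2.06, 2.39, 2.26 and 2.31, so the groups did not overlap. In the ventral piece the ratio was 1.59 to 2.04 in controls and 1.44 to 2.87 in mutants, and in the axon piece 1.26 to 1.76 and 1.53 to 2.39, each with overlap. This ratio does not depend on scaling, was singled out after its values were seen and is given without a test. Beside it, the dorsal mutants differed from dorsal controls in other lists: 8 melanin genes summed to 2940 to 11855 CPM in mutants and 43.5 to 5003 CPM in controls, and 11 mesenchyme genes to 55.6 to 373 CPM and 1160 to 10389 CPM. The melanin sums overlapped and the mesenchyme sums did not. The astrocyte progenitor sum was 944 to 1815 CPM in dorsal mutants and 2707 to 3607 CPM in dorsal controls, without overlap. The part of these lists in the ratio was not tested.

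**Figure D4:**
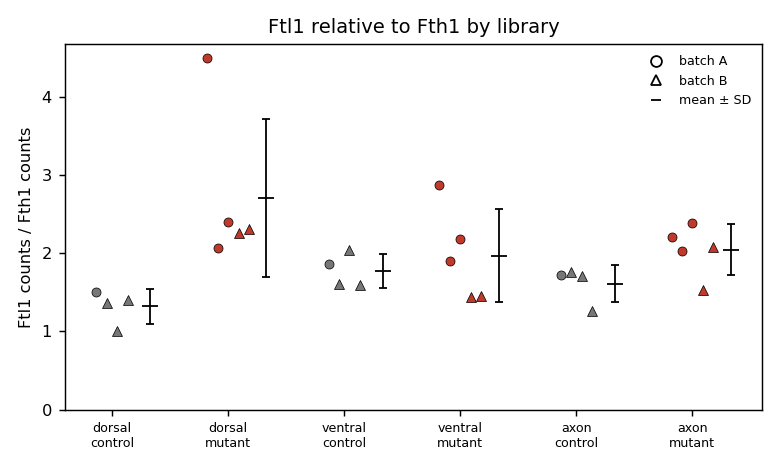
Ftl1 counts divided by Fth1 counts, 1 point per library, by region and genotype, with group mean and SD. Dorsal controls lie between 1.00 and 1.51 and dorsal mutants between 2.06 and 4.50, while the genotypes overlap in the other pieces.

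Counting could reach the ferritins through copies and overlaps. The near-identical copy Ftl1-ps1 held 1.46% as many counts as Ftl1 over the 27 libraries, and the copies Ftl2-ps, Ftl1-ps2, Fth-ps2 and Fth-ps3 each at most 0.0455% of their parent. Of the exonic bases of Ftl1, 34.6% are shared with Gm10252 and Gm22133, which had 0 counts; how reads there were assigned is not stated, so the level of Ftl1 relative to Fth1 is uncertain in absolute terms.

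The other 6 members were far lower and, Hmox1 in ventral controls apart, more variable. Where Fth1 varied by 6.17% to 23.3% (coefficient of variation) within groups and Ftl1 by 12.3% to 24.1%, Tfrc varied by 44.9% to 88.7% and Slc40a1 by 128% to 224%. Ireb2 varied by 33.2% to 66.5%, Aco1 by 37.2% to 114%, Slc11a2 by 92.2% to 167% and Hmox1 by 18.2% to 146%. Genes of like level to the ferritins, 184 in number, had group medians of 16.9% to 25.3%. No such set was taken at the level of the other 6 members.

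Tfrc, the port of entry for transferrin iron, had 8.36, 17.9, 43.0 and 52.4 CPM in dorsal controls and 44.1, 49.8, 86.7, 116 and 38.9 CPM in dorsal mutants. Ventral controls had 26.8, 46.4, 18.5 and 103 CPM and ventral mutants 124, 46.9, 41.2, 104 and 82.4 CPM. Axon controls had 37.8, 10.4, 24.9 and 25.3 CPM and axon mutants 25.2, 15.4, 70.4, 165 and 58.2 CPM. Mutant means were above control means in each piece, and the libraries overlapped in each. The log2 fold change was 1.68 in dorsal (interval -0.37 to 3.74, edgeR adjusted p = 0.938), 0.98 in ventral (-0.54 to 2.50, adjusted p = 0.999) and 1.40 in axon libraries (-1.37 to 4.17, adjusted p = 0.911), so no difference was detectable at this spread.

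Slc40a1, the only known exporter of iron from vertebrate cells, was at 0 in 20 of the 27 libraries. Dorsal controls had 2.58, 15.0, 99.8 and 0 CPM, and of the dorsal mutants mutant 4 had 8.41 CPM while the others were at 0. The highest library, dorsal control 3, also had erythroid, mesenchyme and macrophage sums of 24458, 10389 and 64.9 CPM, whose part was not tested. In the ventral piece 1 control library had 0.534 CPM and all others were at 0. Axon controls had 0, 0, 22.5 and 45.0 CPM, and all 5 axon mutants were at 0, which allows up to 3 counts or 0.162 CPM on average. Mean Slc40a1 was therefore at least 104-fold higher in axon controls than in axon mutants, but 2 control libraries supply that mean, and edgeR gave an adjusted p of 0.880. Macrophages, in which ferroportin recycles iron, showed summed markers (12 genes) of 0, 348, 170 and 56.4 CPM in axon controls 1 to 4. The sums were 0 to 172 CPM in axon mutants. Csf1r, Cx3cr1, Mrc1, Ptprc, Trem2 and Tyrobp were at 0 in all axon mutants, and Ptprc and Trem2 also in all axon controls. The part of macrophages was not tested.

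Slc11a2, which carries iron out of endosomes, ranged from 0 to 109 CPM and was at 0 in 7 libraries. Axon mutants had 30.0, 101, 0, 0 and 0 CPM and axon controls 4.56, 10.2, 0 and 74.5 CPM. Library values of the dorsal and ventral pieces ran over similar ranges, from 0 to 85.3 CPM in dorsal and 0 to 109 CPM in ventral libraries. Its exons share 6.33% of their bases with Gm5475, which lies on the other strand.

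Ireb2, the iron-sensing RNA-binding protein IRP2, was, beside Slc40a1, a member with an unadjusted p under 0.05 between dorsal and ventral pieces of both genotypes. Dorsal controls had 114, 180.3, 211 and 103 CPM, all above the ventral controls with 34.2, 71.1, 84.5 and 73.6 CPM. Such separation held for 1.32% of genes. In mutants the dorsal pieces had 101, 35.8, 113, 103 and 114 CPM and the ventral pieces 56.9, 36.3, 22.8, 48.7 and 63.4 CPM, with dorsal mutant 2 alone inside the ventral range. The log2 fold change of dorsal over ventral was 1.19 in controls (interval 0.14 to 2.25) and 1.05 in mutants (interval 0.05 to 2.06), with unadjusted p of 0.0296 and 0.0408 and edgeR adjusted p of 0.615 and 0.381, so neither passed over all genes. Exact permutation tests (two-sided) gave 0.0286 in controls, the smallest possible with 4 against 4, and 0.0397 in mutants. With batch composition kept both were 0.05, the smallest possible in controls but not in mutants. In axon libraries Ireb2 ranged from 9.93 to 133 CPM.

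Aco1, which is cytosolic aconitase when it holds an iron-sulphur cluster and an RNA-binding regulator when it does not, ranged from 0 to 173 CPM, with group means of 53.9 to 81.7 CPM. No pair of groups compared was free of overlap. Hmox1, which opens haem and frees its iron, had group means of 17.4 to 61.2 CPM. It was within 25.0 to 37.9 CPM in the 4 ventral controls, its tightest group, but lay at no more than 3 counts in 6 libraries, 2 of them axon controls and 2 axon mutants. Dorsal control 1 (129.8 CPM) and dorsal mutant 3 (129.9 CPM) had the most.

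**Figure D5:**
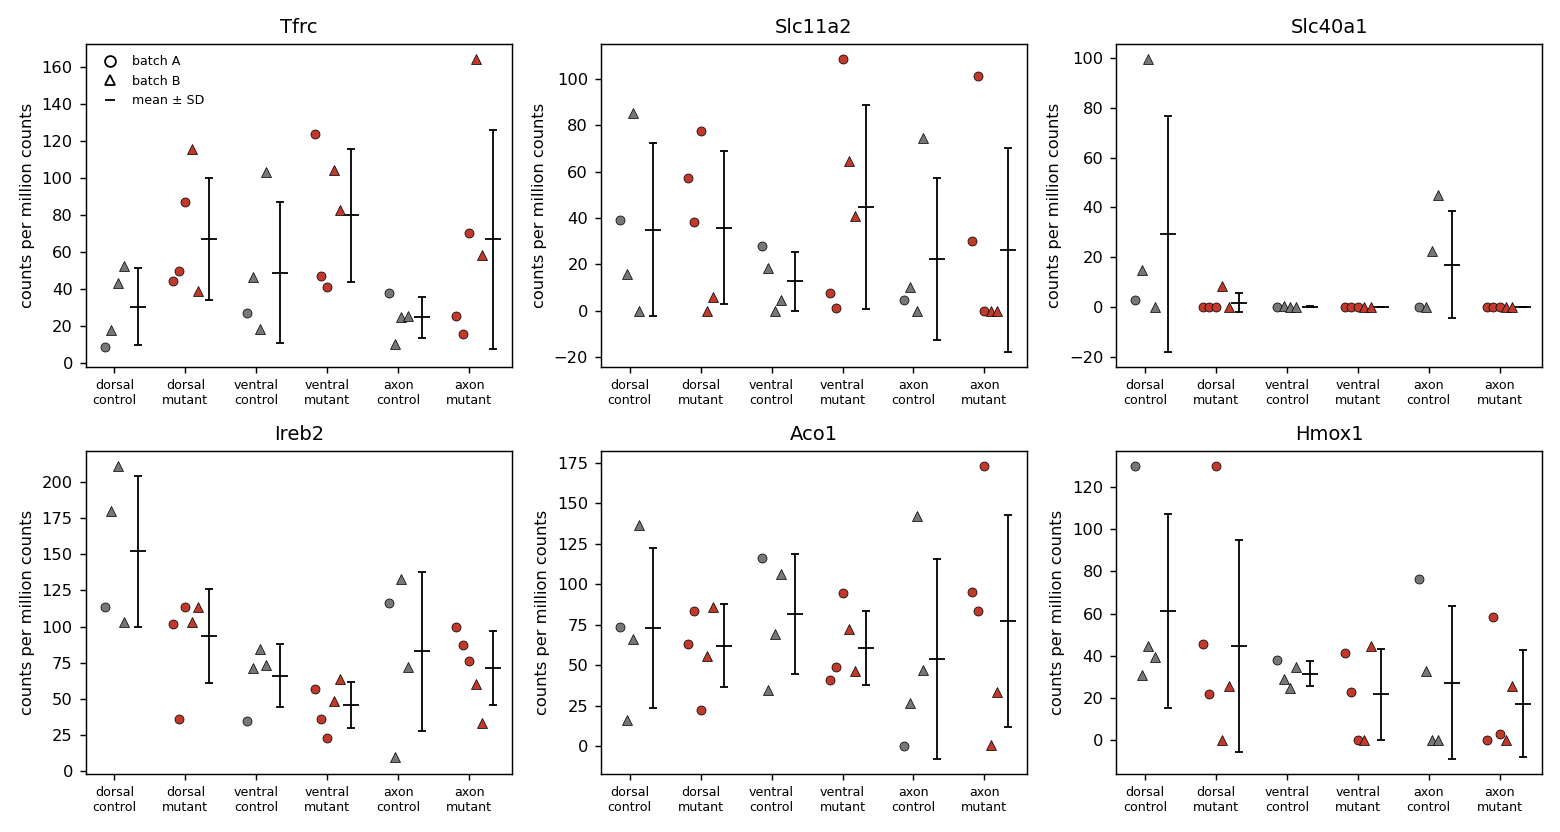
The 6 lower members in CPM, 1 point per library, by region and genotype, with group mean and SD (bars below 0 come from the SD alone). Groups compared in the text overlap in every panel except for Ireb2, where dorsal controls (103 to 211 CPM) lie above ventral controls (34.2 to 84.5 CPM).

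Between genotypes edgeR called 0 of the 6 other members in the dorsal, ventral or axon pieces, against 0.0124%, 0% and 0% of all genes, and none had an unadjusted p under 0.05. DESeq2 called 0 in dorsal and ventral and 2 in axon libraries, Slc40a1 and Slc11a2, where it called 1233 genes in all, and limma voom called 0 in each. Between dorsal and ventral controls edgeR also called 0 of 6 and 0% of all genes, while Slc40a1 and Ireb2 had an unadjusted p under 0.05; DESeq2 and limma voom called 0. Between dorsal and ventral mutants the same 2 genes of 8 had an unadjusted p under 0.05, and DESeq2 and limma voom called 0. The genotype effect was not called as different between pieces for any of the 6, where 0.00612% of genes were called for dorsal against ventral, 0.0245% for dorsal against axon and 0.00612% for ventral against axon. There the unadjusted count was also 0, limma voom called 0, and DESeq2 called Slc40a1 for dorsal against axon. Of 48 exact permutation tests on members 6 had an unadjusted p under 0.05, those of the ferritins and Ireb2 given above.

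Beyond the members, 68 further genes of iron and haem handling were followed in 7 lists, of which 57 passed the filter (55 had counts in axon libraries). None was called by edgeR in any comparison of regions or genotypes. Their median log2 fold change was 0.06 between axon and dorsal mutants and -0.05 between axon and ventral mutants, beside -0.33 and -0.37 over all genes. An unadjusted p under 0.05 was met by 8 and 7 of the 57, against 23.5% and 21.8% of all genes. DESeq2 called 5 and 3 of them, and limma voom 1 and 1.

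By role, the iron storage and sensing list (Ftmt, Ncoa4, Pcbp1, Pcbp2, Fbxl5 and Epas1), of which 5 of 6 were tested, had a median log2 fold change of 0.61 for axon over dorsal and 0.67 for axon over ventral mutants. Of the 5, 4 and 3 were higher in axon. Pcbp2, a chaperone that hands iron to ferritin, had 254 ± 64.0 CPM in axon mutants (SD, n = 5) and 180.3 ± 23.7 CPM in ventral mutants (SD, n = 5), a log2 difference of 0.67 that was not called (edgeR adjusted p = 0.214). Epas1 (HIF-2α) was at 0 in 2 of 5 axon and 4 of 5 ventral mutants. The iron uptake list had medians of -1.76 and -2.06 in the same comparisons, each the value of Slc39a14 alone. In both comparisons 4 of its 9 tested genes (Trf, Slc39a8, Slc25a37 and Cybrd1) were higher in axon and 5 lower. Among the lower genes of this list Slc11a1, an iron transporter of phagosomes, was at 0 in all axon mutants and reached 64.7 CPM in dorsal mutants (edgeR adjusted p = 0.182). Slc46a1, a folate and haem carrier, had 0.0355 ± 0.0794 CPM in axon mutants against 41.0 ± 23.0 CPM in ventral mutants (SD, n = 5 each), also not called (edgeR adjusted p = 0.177).

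Ceruloplasmin (Cp), the copper oxidase that works with ferroportin, belonged to the export list. It had 59.7 to 200.5 CPM in dorsal mutants, 311 to 637 CPM in ventral mutants and 91.4 to 496 CPM in axon mutants. The log2 difference of dorsal from ventral mutants was -1.71 (SE 0.36) with an edgeR adjusted p of 0.173. In dorsal controls it had 113 to 509 CPM. Hfe, a partner of the transferrin receptor, was at 0 in all dorsal mutants and 2 of 4 dorsal controls.

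Txnrd1, a thioredoxin reductase under the Nrf2 regulator, had 54.8 to 125 CPM in dorsal mutants and 10.9 to 33.5 CPM in dorsal controls, a log2 difference of 2.35 (SE 0.71) that did not pass over all genes (edgeR adjusted p = 0.918). In the haem synthesis list Alas2, the erythroid first enzyme, was at 0 in all dorsal controls and had 3.27 to 7.58 CPM in ventral controls (edgeR adjusted p = 0.615). Lrp1, the receptor for haem bound to haemopexin, had 103 to 349 CPM in dorsal and 43.3 to 72.3 CPM in ventral controls (edgeR adjusted p = 0.615). The iron-sulphur cluster list had median log2 fold changes of 0.32 and 0.19 for axon over dorsal and ventral mutants and 0 called of the 7 tested.

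Over the 27 libraries and 7297 genes of at least 20 CPM on average, the gene most like Fth1 was Tmsb10, an actin-binding peptide (Pearson r 0.878). Gm9843 (0.839), mt-Rnr1 (0.816), Nes (0.808) and Rps26 (0.805) followed. Tmsb10 had group means of 444 to 637 CPM in dorsal and ventral and 1073 to 1191 CPM in axon libraries. Most like Ftl1 was its near-identical copy Ftl1-ps1 (0.977) and then the respiratory chain subunits Cox6a1 (0.860) and Cox8a (0.845), Cacng4 (0.834) and Rps23 (0.832). Fth1 and Ftl1 had r 0.679 with each other, rank 48 from Fth1. These values describe libraries that share embryos, depth and the axon contrast by which the genes were chosen, and no p is given.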

How the data were processed

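RNA of laser-captured optic stalk pieces was amplified and sequenced in 27 libraries. The authors deposited raw counts per gene, made from single-end reads in Seq2Science (STAR against mm10, then HTSeq) at default settings; versions, annotation release and strand setting are not given in the sources used here. Group, batch and number came from the labels, and names and positions from GENCODE M21 (55227 of 55487 identifiers matched; the others held 0.00287% of counts).

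Members, lists and tests were chosen with earlier results of these data known. CPM is counts over the library total. The main test was edgeR 4.0.16 (R 4.3.3), a two-sided quasi-likelihood F-test with TMM on 16330 genes (over 10 counts in 3 or more of the libraries), called at Benjamini-Hochberg adjusted p under 0.05 and absolute log2 fold change over 0.58; genes at 0 in all libraries of a comparison were dropped. Genotypes were fitted within a piece with batch, pieces without covariate, interactions over all libraries with batch. Standard errors were derived from fold change and F and are approximate. Single members had exact permutation tests of log2(CPM + 1), with p left unadjusted because no adjustment over a chosen list was made. Named further genes are those called, otherwise the 2 with the smallest p per direction in the comparisons of pieces and genotypes, of which part is shown; genes alike are the 5 of highest r. DESeq2 1.42.0, limma 3.58.1 voom, other scalings and filters, batches alone, left-out libraries and blocks were alternatives. The steps were tested on simulated data. The amplified reads carry no molecular identifiers, so floors of 3 counts cover counting error only.

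The labels give genotype, region and number but name no embryo. Pieces of a genotype with the same number were taken as the same embryo, which pairs regions. Deviations from the group means correlated by 0.0395 on average over 27 pairs of libraries taken as the same embryo (lowest -0.0195, highest 0.115). Over 96 pairs taken as different embryos the average was -0.0108. These values alone do not settle the pairing. No 2 libraries held identical counts (0 pairs).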

Additional observations from a re-analysis of the deposited data

Results flagged for a closer look

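Within groups of 4 or 5 libraries, 8 of 52 sets of values had 1 library whose gap to the next was large against the range of the group (Dixon's criterion at 95%). For normally distributed values chance flags about 1 in 20. A set with 1 library above 0 and the others at 0 is always flagged, so the count of flags cannot be set against that rate. Slc40a1 was highest in dorsal control 3 (99.8 CPM, others 0 to 15.0), dorsal mutant 4 (8.41 CPM, others at 0) and ventral control 2 (0.534 CPM, others at 0). Slc11a2 was highest in axon control 4 (74.5 CPM, others 0 to 10.2). Ireb2 was lowest in dorsal mutant 2 (35.8 CPM, others 101 to 114). Hmox1 was highest in dorsal control 1 (129.8 CPM, others 31.0 to 44.5). The Ftl1 to Fth1 ratio was highest in dorsal mutant 1 (4.50, others 2.06 to 2.39), where Fth1 was 557 CPM, and lowest in axon control 4 (1.26, others 1.70 to 1.76). In the interaction tests edgeR called none of the 6 members other than the ferritins, while DESeq2 called Slc40a1 for dorsal against axon. The ferritins were not tested between genotypes.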

How the results depend on the processing

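Between axon and dorsal mutants 2 of 8 members were called (Fth1 and Ftl1); DESeq2 called 1 (Fth1; Ftl1 had an adjusted p of 0.0769), limma voom called 1 (Ftl1; Fth1 had a log2 fold change of 1.26 with an SE of 3.67, the cause was not tested), and batch A alone and batch B alone each called 0, with fewer libraries. Between axon and ventral mutants 2 were called, and 0 in batch A alone and 0 in batch B alone. Leaving out each library kept both genes called in both. Over all genes DESeq2 and limma voom called 1571 and 727 against 86 by edgeR for axon against dorsal and 1352 and 601 against 70 for axon against ventral mutants; between genotypes DESeq2 called 342 to 1233 and limma voom 5 to 52 where edgeR called 0 to 2, between dorsal and ventral pieces 243 to 460 and 19 to 27 against 0, and for the interactions 590 to 1485 and 6 to 53 against 1 to 4. Over all alternatives the edgeR, DESeq2 and voom adjusted p of Fth1 ran up to 0.868 against dorsal and 0.616 against ventral, and of Ftl1 up to 0.604 and 0.516. With the embryo as a replicate block both comparisons again called 2, and the block moved no count of the other comparisons from 0. In axon mutants against controls DESeq2 called 2 (Slc40a1 and Slc11a2) instead of 0. For the genotype effect in dorsal against axon it called 1 (Slc40a1) instead of 0. Both genes were at 0 in most axon mutants, yet mean Slc11a2 was 26.3 CPM there and 22.3 CPM in axon controls. The other comparisons gave 0 under each alternative. Ftl1 between dorsal and ventral mutants turned from 0.16 to -0.082 on the log2 scale with limma voom. Of the exact permutation tests 6 had p under 0.05, and 0 did with sign flips over embryos, whose smallest p is 0.0625 for 5 embryos. Between genotypes numbers are not shared animals: same-numbered libraries correlated by -0.0143 on average and the number as a block called 0 members. Ferritin group means moved by less than 1 SD under each scaling and left-out library. Where a gene was at 0, depth limits it to 0.0883 to 0.275 CPM.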
